A study of Mus musculus with 6 samples.

Results

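Upper cortical layer spots were followed across 6 Visium sections of mouse brain, 1 section from 1 female mouse in each of 6 groups. Visium captures RNA from a tissue section on a grid of barcoded spots. Each spot is a small region that can hold several cells, and each captured molecule is counted as 1 unique molecular identifier (UMI). Upper spots were chosen by a score, the sum over the genes Lamp5, Ddit4l, Cux2 and Rspo1 of the natural log of 1 plus the UMIs per 10000 UMIs of the spot, and were the spots at or above the 93rd percentile of that score over all sections together. They numbered 934 of the 13334 tissue spots that held at least 1000 UMIs. A pair of further sets were cut the same way for comparison, 867 layer 5 spots scored on Etv1, Fezf2, Deptor and Parm1 and 904 layer 6 spots scored on Rprm, Foxp2, Hs3st4 and Tle4.

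All 6 mice were homozygous targeted replacement mice, in which the coding part of mouse Apoe had been exchanged for human APOE4 (E4) or human APOE3 (E3) under the mouse Apoe promoter. E4 5xFAD and E3 5xFAD mice were 12 months old and came from a cross of the APOE lines to 5xFAD, a line that overexpresses mutant human APP in neurons from a Thy1 promoter cassette and lays down amyloid plaques. E4 aged and E3 aged mice were 24 months old, and E4 young and E3 young mice were 3 months old. Without 12-month mice lacking the transgenes, the effect of 5xFAD cannot be told apart from that of age, from the strain brought in by the cross, or from the separate file prefix of the 5xFAD pair.

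Layers 2, 3 and 4 of the neocortex hold the small pyramidal and stellate neurons of the cortical circuit. Layer 4 neurons receive most of the thalamic input, and layer 2 and 3 neurons pass it on to other cortical areas of the same and the opposite hemisphere. Deeper down, layer 5 and layer 6 neurons send the output of the cortex to the brainstem, spinal cord, striatum and thalamus. Cux2 is a homeobox factor of upper layer neurons, Lamp5 is a membrane protein of upper layer neurons and of a class of interneurons, Rspo1 is a secreted activator of Wnt signalling, and Ddit4l is an inhibitor of mTOR signalling.

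The upper spots were spread over the sections unevenly. There were 174 in E4 5xFAD, 214 in E3 5xFAD, 9 in E4 aged, 147 in E3 aged, 176 in E4 young and 214 in E3 young. They made up 7.49% (exact 95% binomial interval 6.46% to 8.64%) of the spots used in E4 5xFAD, 8.43% (7.37% to 9.57%) in E3 5xFAD, 0.623% (0.285% to 1.18%) in E4 aged, 6.87% (5.83% to 8.02%) in E3 aged, 7.85% (6.77% to 9.04%) in E4 young and 8.09% (7.08% to 9.20%) in E3 young. These intervals cover counting error only, and the shares follow from the rule and from how much cortex a section and its mask hold. In 5 sections the upper spots formed a band along the dorsolateral edge of the cortex, with layer 5 and layer 6 spots beneath it. Layer 5 spots also lay scattered below the cortex. E4 aged had no such band, and its 9 spots lay scattered.

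**Figure D1:**
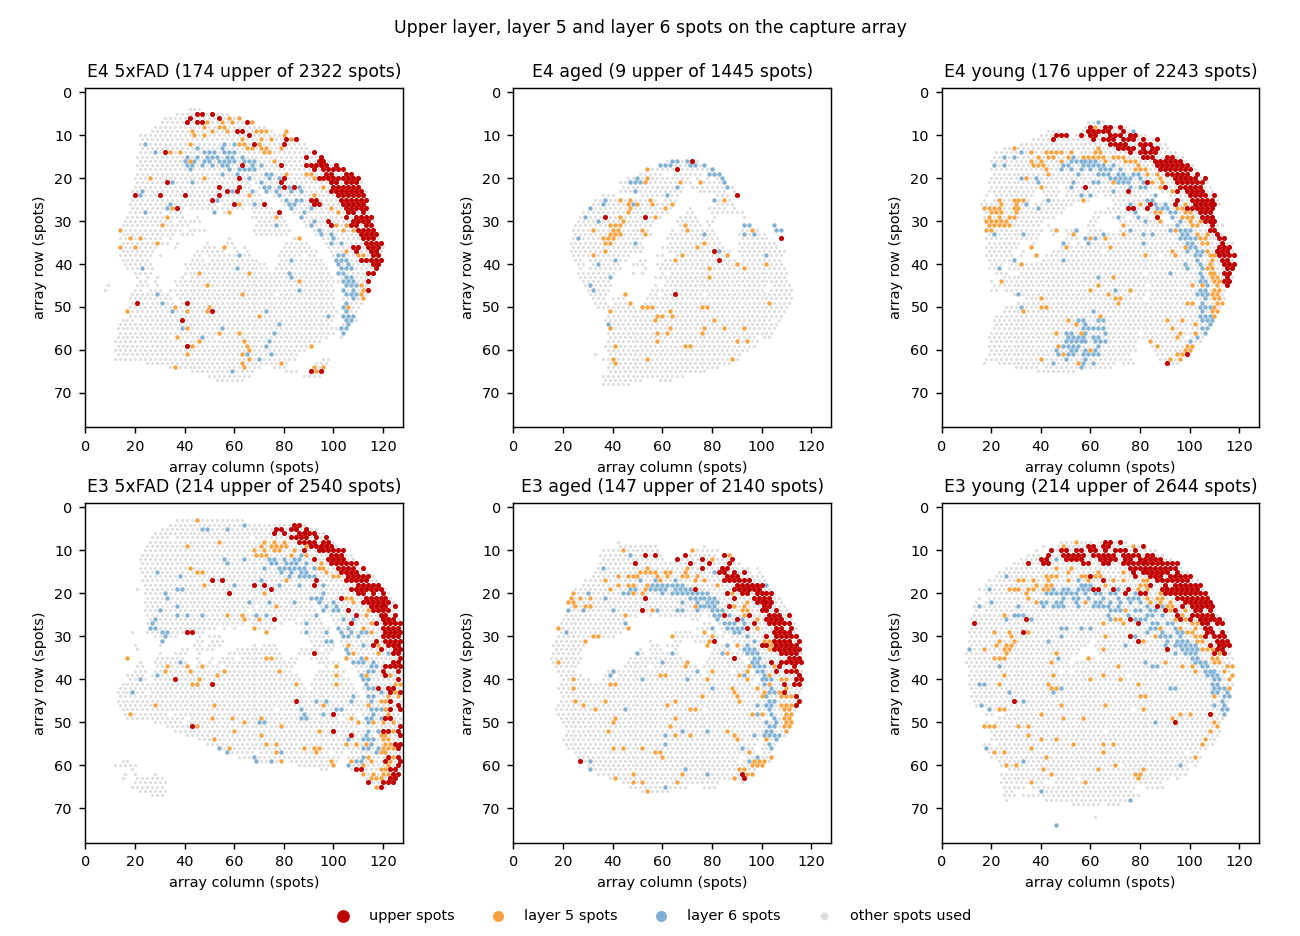
Positions of the upper spots (dark red), layer 5 spots (orange), layer 6 spots (blue) and other spots used (grey) on the capture grid of each section, with both axes in array units. The upper spots lined the outer cortical edge in 5 sections, while the 9 upper spots of E4 aged were scattered.

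Neighbourhood on the grid gave the same picture. Upper spots with at least 2 upper spots among their 6 grid neighbours numbered 119 of 174 in E4 5xFAD, 157 of 214 in E3 5xFAD, 0 of 9 in E4 aged, 108 of 147 in E3 aged, 151 of 176 in E4 young and 177 of 214 in E3 young. The median distance of an upper spot from the outer edge of the barcoded area was 7, 3, 5, 6 and 6 grid steps in E4 5xFAD, E3 5xFAD, E3 aged, E4 young and E3 young, against 10, 6, 7, 7 and 8 steps for layer 5 spots and 12, 9, 9, 10 and 11 steps for layer 6 spots. The upper spots thus lay nearest to the surface in all 5 sections. The tissue mask limits these positions, because the count matrix held barcodes for only 75.9% to 86.0% of the masked spots in 5 sections and for 99.9% in E3 5xFAD. Among the 934 members there were 597 distinct barcodes, of which 201 occurred in 2 or more sections, since all capture areas carry the same barcode layout.

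Depth was high enough for summed levels in 5 sections. Median UMIs per upper spot were 17059 in E4 5xFAD, 13010 in E3 5xFAD, 5878 in E4 aged, 19483 in E3 aged, 21580 in E4 young and 15888 in E3 young. Summed over the upper spots of a section this gave between 2947509 and 3772761 UMIs in 5 sections but only 59195 in E4 aged. The levels below are UMIs per 1000000 UMIs of the upper spots of a section (CPM), so fewer cells of a type and less RNA per cell cannot be told apart.

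The 4 genes that chose the spots are described here without any test. A UMI of Lamp5 was found in 99.7% of upper spots, against 60.6% of layer 5 spots, 60.3% of layer 6 spots and 49.1% of all spots outside the upper set, at medians of 17240 UMIs per upper spot and 13070 UMIs per other spot. Cux2 was found in 87.4% of upper spots, against 29.4% of layer 5 and 30.1% of layer 6 spots. Ddit4l was found in 78.7% of upper spots, against 15.5% of layer 5 and 15.8% of layer 6 spots. Rspo1 was the sparsest, found in 44.1% of upper spots, against 9.00% of layer 5 and 7.74% of layer 6 spots. All 4 genes were present together in 280 upper spots, 3 of them in 470, 2 in 180 and 1 in 4. The score needed to enter was 2.587, the highest score outside was 2.585, and 100 members lay within 0.1 above the limit while 82 spots lay within 0.1 below it. The upper set is therefore one end of a continuous score and not a separate class.

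Across sections the rule genes were even except in E4 aged. One pooled limit on these same 4 genes chose the spots in every section, so even levels follow from the rule and are not a result. Lamp5 stood at 595.5 CPM in E4 5xFAD, 603.8 in E3 5xFAD, 422.5 in E4 aged, 563.8 in E3 aged, 589.4 in E4 young and 530.8 in E3 young. Ddit4l stood at 92.5, 119, 84.9, 83.0 and 97.6 CPM in E4 5xFAD, E3 5xFAD, E3 aged, E4 young and E3 young, and at 16.9 CPM, which is a single UMI, in E4 aged. Within the upper spots of one section, Rspo1 ran with the layer 4 gene Rorb at Spearman's rho of 0.22 to 0.40 and against Lamp5 at -0.25 to -0.11 over the 5 sections with 147 to 214 upper spots. Calb1 and Rasgrf2, markers of layers 2 and 3, ran together at 0.34 to 0.45. These coefficients are across spots of one library that differ in depth and lie next to one another, and they are given as a description. Rspo1 and Lamp5 are both part of the score, and keeping spots with a high sum of its parts sets those parts against each other among the members, so their negative coefficients are not read as a pattern of the tissue.

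The label was checked with markers that the score did not use. The 12 markers of layer 2/3 neurons summed to 1143, 1221, 1255, 1307 and 1335 CPM in the upper spots of E4 5xFAD, E3 5xFAD, E3 aged, E4 young and E3 young. The same list summed to 748.7, 756.3, 783.8, 826.5 and 745.7 CPM in the layer 5 spots. In all spots outside the upper set, layer 5 and layer 6 spots among them, it summed to 990.1, 1059, 934.6, 870.8 and 937.7 CPM. The upper spots were thus higher in each section, by a modest margin over all other spots. Markers of layers 6 and 6b summed to 70.1 to 81.1 CPM in upper spots, against 204.8 to 329.5 CPM in layer 6 spots and 108.7 to 117 CPM in all spots outside the upper set. In the 9 upper spots of E4 aged the layer 2/3 list summed to 1656 CPM, the highest of the 6 sections, of which Penk, an enkephalin gene that striatal neurons also express, made up 575 CPM (34 UMIs). These spots also held markers from elsewhere. Thalamus markers summed to 1031 CPM in them against 224.8 to 288 CPM in the other sections. Striatum markers summed to 895.8 against 191.8 to 335.8 CPM, and myelin and oligodendrocyte genes to 6727 against 2113 to 2783 CPM. Layer 5 markers summed to 2332 against 531.4 to 807.3 CPM, but Pcp4 made up most of that sum. Of 9 layer 5 markers measured, 7 were higher in E4 aged than in E3 aged. The 4 genes that chose the layer 5 spots summed to 67.6 CPM, against 110.4 to 150 CPM in the other sections. A value of the upper spots of E4 aged therefore mixes upper layer markers with those of subcortical tissue and myelin, while layer 5 genes divided. The section was kept in the 6-section fits, and counts of called genes are also given without it, which leaves 925 upper spots in 5 sections.

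**Figure D2:**
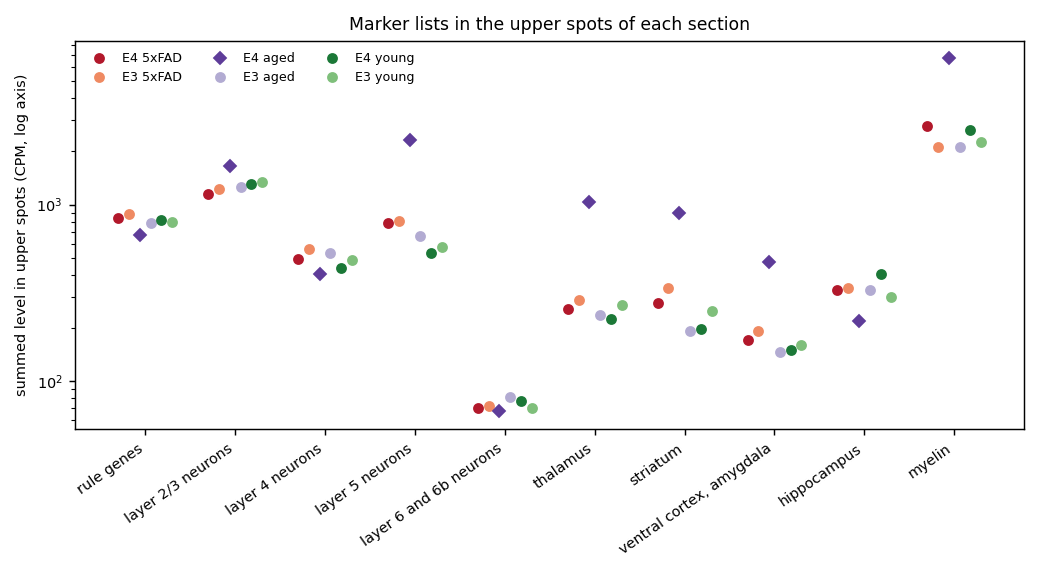
Summed level (CPM, log axis) of the rule genes and of 9 marker lists in the upper spots, 1 point for each section. The purple diamonds of E4 aged lie above all other sections for layer 2/3, layer 5, thalamus, striatum, ventral cortex and myelin markers.

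The upper spots were then set against the deeper layers of the same sections. Spots of all 3 sets were picked by their RNA, so folds are given as a description with the number of sections that share a direction. Under edgeR's quasi-likelihood test with the section as a block, 3084 of 12681 genes (24.3%, with 12.0% higher and 12.4% lower) differed between upper and layer 5 spots and 2586 of 12813 genes (20.2%, with 9.77% higher and 10.4% lower) between upper and layer 6 spots at an adjusted p of 0.05. Without E4 aged they were 3190 of 12690 (25.1%) and 2788 of 12716 (21.9%), and nothing is read from these counts. The list counts by direction in the comparisons between layers were the same without E4 aged.

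Genes of layers 2 and 3 were higher in the upper spots. Rasgrf2, an exchange factor for Ras, stood at 165, 194, 135, 207, 217 and 210.0 CPM in upper spots of E4 5xFAD, E3 5xFAD, E4 aged, E3 aged, E4 young and E3 young, against 86.1, 73.3, 85.2, 62.8, 69.9 and 60.9 CPM in layer 5 spots. The sets did not overlap, and the log2 fold change was 1.53 against layer 5 and 1.42 against layer 6. Calb1, the calcium buffer calbindin, stood at 207, 250, 186, 221, 267 and 305 CPM in upper spots against 98.2, 123, 104, 101, 100 and 78.6 CPM in layer 6 spots in the same order of sections, with a log2 fold change of 1.35. Of the layer 2/3 list, 12 of 12 genes had a positive fold against layer 5 (median 0.96 on the log2 scale, -0.003 over all genes tested) and 11 of 12 against layer 6 (median 1.12, -0.012 over all genes tested). The lipid transfer protein gene Stard8 and the adhesion gene Nectin3 had log2 fold changes of 1.94 and 1.53 against layer 5.

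Layer 4 genes were also gathered in the upper spots. Rorb, a nuclear receptor that marks layer 4 neurons, stood at 74.2, 87.9, 50.7, 85.9, 81.9 and 96.4 CPM in upper spots of E4 5xFAD, E3 5xFAD, E4 aged, E3 aged, E4 young and E3 young, against 34.7, 41.1, 28.4, 36.7, 25.5 and 49.3 CPM in layer 5 spots. The log2 fold change of Rorb was 1.24 against layer 5 and 2.07 against layer 6. All 7 layer 4 markers were higher in both comparisons, with medians of 0.82 and 1.36. Tmem215 reached 2.07 against layer 5, and Plxnd1, a receptor for semaphorins, reached 0.82 against layer 5 and 1.36 against layer 6. The upper set thus covers layers 2 to 4 by its markers.

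Other genes that led the upper spots were not on a layer list. Against layer 5, those with the largest folds in one direction in all 6 sections included Dact2, a regulator of Wnt signalling (log2 fold change 1.65), Kcnab3, an auxiliary subunit of potassium channels (1.34), Camk2n1, an inhibitor of CaMKII (1.21), and Cabp1, a calcium-binding protein (1.16). Kcnab3 stood at 98.6, 143, 16.9 (1 UMI), 115, 87.2 and 125 CPM in upper spots of E4 5xFAD, E3 5xFAD, E4 aged, E3 aged, E4 young and E3 young, against 50.05, 54.2, 13.1, 35.95, 41.2 and 46.9 CPM in layer 5 spots. Against layer 6, Kcnab3 (2.02), Dact2 (1.76), Krt12 (1.74), Grm2, a metabotropic glutamate receptor (1.44), Bhlhe22, a transcription factor of cortical neurons (1.36), and Rgs4, a brake on G protein signalling (1.26), were among the largest.

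Interneuron genes divided. Vip, a peptide of interneurons that inhibit other interneurons, stood at 106, 90.6, 117, 118.5 and 118 CPM in upper spots of E4 5xFAD, E3 5xFAD, E3 aged, E4 young and E3 young, against 54.7, 28.6, 57.3, 32.0 and 22.4 CPM in layer 5 spots. In E4 aged the order was turned, with 33.8 CPM of Vip in upper spots and 59.1 CPM in layer 5 spots. The log2 fold change of Vip was 1.54, that of the stress peptide gene Crh was 1.44, and that of the calretinin gene Calb2 was -1.19. Of the 19 interneuron genes, 10 had a positive fold against layer 5 and 14 against layer 6.

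Genes of the deep layers were lower in the upper spots. Pcp4, a calmodulin-binding peptide abundant in layer 5, fell by 1.55 on the log2 scale against layer 5 spots over all sections and by 1.65 without E4 aged, where its direction was the opposite. Tshz2 (-1.63), Crym (-1.43) and Bcl11b (-1.27), all markers of layer 5 neurons, had the same direction. Ccn2, a secreted matrix protein that marks layer 6b, stood at 8.47, 10.0, 0, 11.2, 12.99 and 8.79 CPM in upper spots of E4 5xFAD, E3 5xFAD, E4 aged, E3 aged, E4 young and E3 young, against 50.3, 82.4, 163, 132, 69.6 and 124 CPM in layer 6 spots. The log2 fold change of Ccn2 was -3.10, followed by Nxph3 (-2.61) and Cplx3 (-2.35), a neurexin ligand and a brake on synaptic release. All 8 layer 6 and 6b markers were lower in upper than in layer 6 spots, with a median of -2.28.

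Glial and synaptic genes also followed depth. None of the 18 myelin and oligodendrocyte genes was higher in upper spots, with medians of -0.88 against layer 5 and -1.004 against layer 6. The myelin gene Mbp stood at 899, 684, 698.5, 877 and 728 CPM in upper spots of E4 5xFAD, E3 5xFAD, E3 aged, E4 young and E3 young, against 1336, 1219, 1352, 1662 and 1764 CPM in layer 5 spots. Of the 26 synapse and receptor genes tested, 21 were higher than in layer 5 (median 0.24) and 20 higher than in layer 6 (median 0.29), among them Camk2a, the kinase of synaptic plasticity, at 0.81 against layer 5. Of the 22 cholesterol synthesis genes, 1 was higher in upper spots in each comparison, with medians of -0.27 and -0.24. Thalamus markers were lower in upper than in layer 5 spots for all 8 genes (median -1.22). The map shows layer 5 spots scattered below the cortex, so part of the contrast with layer 5 is a contrast with subcortical tissue. The 9 layer 5 markers that chose no spots summed to 1834, 1823, 1880, 1793 and 2062 CPM in layer 5 spots of E4 5xFAD, E3 5xFAD, E3 aged, E4 young and E3 young. In all spots outside the upper set they summed to 1615, 1960, 1998, 1884 and 2080 CPM, so only E4 5xFAD was higher. At least 2 neighbours of the same set were found for 293 of 867 layer 5 spots. The name layer 5 therefore rests on the 4 genes that chose these spots.

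**Figure D3:**
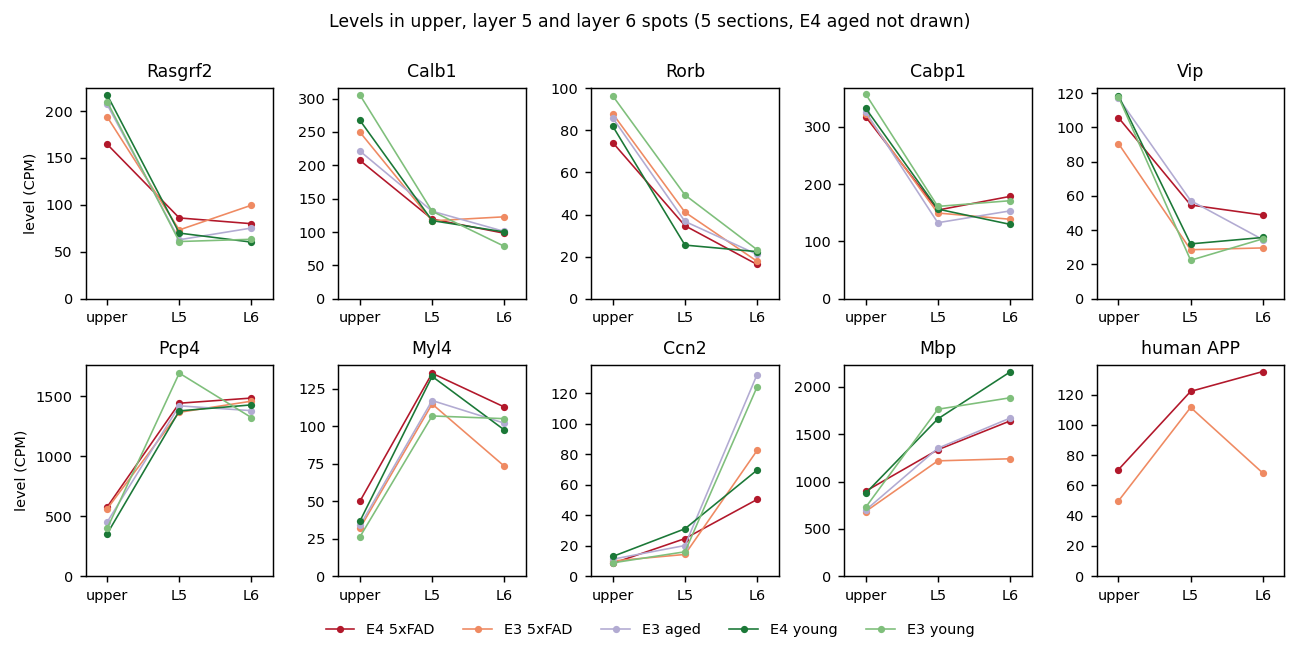
Levels (CPM) of 10 genes in upper, layer 5 (L5) and layer 6 (L6) spots, with 1 line for each of 5 sections. Rasgrf2, Calb1, Rorb, Cabp1 and Vip were highest in the upper spots of every section drawn, and Pcp4, Myl4, Ccn2 and Mbp lowest; human APP is drawn for the 5xFAD sections only.

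Human APOE was measured in the upper spots of every section. It stood at 776, 746, 794, 566.5, 658 and 642 CPM in E4 5xFAD, E3 5xFAD, E4 aged, E3 aged, E4 young and E3 young. E4 was above E3 by little in the 5xFAD and young pairs and by more in the aged pair, where the E4 value comes from the 9 spots of E4 aged. The additive fit gave a log2 fold change of 0.08 ± 0.14 (SE) for E4 over E3, with an edgeR adjusted p of 0.999. In layer 5 spots the levels were 954, 825.5, 813, 629.7, 642.5 and 678 CPM in the same order. UMIs counted on the mouse Apoe gene made up 84.0, 74.2, 101, 66.2, 85.1 and 68.3 CPM of the upper spots.

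The comparisons of genotype and condition used 1 summed library per section. With genotype and condition as additive terms, the 6 sums were fitted with edgeR's quasi-likelihood test and Benjamini-Hochberg adjustment over 12259 genes, so a p-value measures the departure from additivity over 2 residual degrees of freedom and not a spread between mice of one group. Leaving out any section leaves 1 residual degree of freedom, and calls that this ended are named with their fold change. Ratios between 2 single sections carry exact 95% intervals for counting error only. DESeq2, run as an alternative, called far fewer genes, and each count from it stands beside the count from edgeR.

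E4 was compared with E3 over all 3 conditions to find what followed the APOE genotype in the upper layers. At an adjusted p of 0.05, 25 genes were higher and 20 lower in E4, which is 45 of 12259 genes (0.367% in either direction, 0.204% higher and 0.163% lower). Without E4 aged the same test called 51 higher and 58 lower of 12717 genes (0.857%, with 0.401% higher and 0.456% lower). DESeq2 called only Serpina3n and Gm47283, with 38 genes at an unadjusted p under 0.05. The median log2 fold change over all genes was -0.008.

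Serpina3n, a secreted protease inhibitor that reactive astrocytes make, was the leading gene higher in E4. It stood at 96.5 CPM in E4 5xFAD and 27.4 CPM in E3 5xFAD, at 135 CPM in E4 aged and 8.82 CPM in E3 aged, and at 97.3 CPM in E4 young and 8.20 CPM in E3 young. Every E4 section lay above every E3 section. The log2 fold change was 2.57 ± 0.16 (SE) with an edgeR adjusted p of 7.41e-56, and 2.495 with an adjusted p of 3.78e-31 without E4 aged. By pairs the log2 ratio was 1.82 (1.46 to 2.19) in 5xFAD, 3.94 (2.58 to 5.12) in aged on 8 UMIs in E4, and 3.57 (3.01 to 4.18) in young. The call was lost when the 93rd percentile was taken within each section (adjusted p = 0.0737) and under DESeq2 without E4 aged.

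Gm47283, a predicted gene, was the leading gene lower in E4. It had 7, 0 and 5 UMIs in E4 5xFAD, E4 aged and E4 young, against 352, 293 and 134 UMIs in E3 5xFAD, E3 aged and E3 young. The sections did not overlap, and the log2 fold change was -5.37 ± 0.26 (SE), with an edgeR adjusted p of 3e-89. It was called under all 19 other settings tried. Lrrc17, a secreted leucine-rich repeat protein, stood at 163, 304 and 219 CPM in E4 5xFAD, E4 aged and E4 young, against 362, 325 and 439 CPM in E3 5xFAD, E3 aged and E3 young. The log2 fold change of Lrrc17 was -1.02 ± 0.13 (adjusted p = 4.48e-12), and the call was lost without E4 5xFAD, E3 5xFAD, E4 young or E3 young, where the fold change lay between -0.91 and -0.77.

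Other genes lower in E4 included neuronal RNAs. Cartpt, a neuropeptide of upper and deep cortical neurons, stood at 37.6, 0 and 47.2 CPM in E4 5xFAD, E4 aged and E4 young, against 101, 42.1 and 60.9 CPM in E3 5xFAD, E3 aged and E3 young, with a log2 fold change of -0.90 ± 0.14 (edgeR adjusted p = 4.52e-08). Bc1, a small RNA that represses translation in dendrites, stood at 3494 and 6165 CPM in E4 5xFAD and E4 young, against 7977 and 9434 CPM in E3 5xFAD and E3 young, with a log2 fold change of -0.72 ± 0.17 (adjusted p = 0.00758). In the aged pair Bc1 was at 7098 CPM in E4 and 7398 CPM in E3. Kcnab3, the channel subunit that led the upper spots above, had -0.58 ± 0.12 (adjusted p = 0.000708). The calls of Cartpt and Bc1 were lost without E4 5xFAD (-0.49 and -0.46) and without E3 5xFAD (-0.48 and -0.45), that of Bc1 also without E4 young or E3 young (-0.78), and that of Kcnab3 without any single one of E4 5xFAD, E3 5xFAD, E4 young and E3 young (-0.84 to -0.74).

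Of 18 myelin and oligodendrocyte genes, 4 were called higher in E4 and 16 had a positive fold, with a median of 0.34 (4 called, 15 positive and 0.33 without E4 aged). Mbp stood at 899, 2180 and 877 CPM in E4 5xFAD, E4 aged and E4 young, against 684, 698.5 and 728 CPM in E3 5xFAD, E3 aged and E3 young. Mobp had a log2 fold change of 0.62 ± 0.12 (edgeR adjusted p = 6.6e-05), and 0.45 (adjusted p = 0.000995) without E4 aged. Mbp had 0.60 ± 0.13 (adjusted p = 0.00448), and 0.32 (adjusted p = 0.02) without E4 aged. Both calls were also lost without either 5xFAD section, where the fold changes were 0.79 for Mobp and 0.81 for Mbp, and that of Mbp without either young section (0.84). Summed myelin genes were at 4272 and 4932 CPM in layer 5 spots of E4 5xFAD and E4 young, against 3915 and 5626 CPM in layer 5 spots of E3 5xFAD and E3 young, so in the young pair the direction beneath the upper spots was the opposite.

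Of the genes of activated glia, Gfap, C4b and Cst7 were called higher in E4 besides Serpina3n. Gfap, the intermediate filament of astrocytes, stood at 189, 0 and 32.1 CPM in E4 5xFAD, E4 aged and E4 young, against 99.6, 30.9 and 21.7 CPM in E3 5xFAD, E3 aged and E3 young. For Gfap the log2 fold change was 0.76 ± 0.13 (edgeR adjusted p = 1.17e-05). C4b, a complement component, stood at 79.9, 50.7 and 5.30 CPM in the E4 sections, against 38.4, 10.5 and 5.27 CPM in the E3 sections, in the order 5xFAD, aged, young, with 0.89 ± 0.22 (adjusted p = 0.0197). Cst7, a cystatin made by microglia at plaques, had 175, 0 and 0 UMIs in the E4 sections, against 64, 6 and 1 UMIs in the E3 sections, with 1.38 ± 0.27 (adjusted p = 0.000246). Without E4 5xFAD none of these 3 calls held: the fold changes were 0.39 for Gfap, 0.36 for C4b and -3.005 for Cst7. Without E3 5xFAD they were 0.37, 0.38 and -3.008, and the calls were also lost without either young section at 0.64, 1.09 and 1.41. Of 29 disease-associated microglia genes tested, Cst7 alone was called, as it was of 32 without E4 aged. By pairs, E4 was above E3 for 29 of 31 such genes in 5xFAD (median 0.53), 17 of 23 in aged (0.25) and 9 of 23 in young (-0.08). For reactive astrocyte genes the counts were 6 of 10 in 5xFAD (0.39), 5 of 7 in aged (0.51) and 4 of 9 in young (-0.01), and for complement genes 5 of 9 (0.285), 6 of 7 (0.495) and 4 of 8 (-0.01). Over all genes, E4 was above E3 for 6799 of 12064 in 5xFAD (median 0.036), 5105 of 10484 in aged (-0.018) and 5815 of 12179 in young (-0.013). The astrocyte and complement counts in 5xFAD and young lay near these shares, and nothing is read from them. Differences between the conditions were not tested.

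Immediate early genes, which neurons switch on within minutes of activity, were called higher in E4 for 5 of 24 genes, Npas4, Fos, Junb, Egr4 and Per1, with a median of 0.34 (11 genes and 0.45 without E4 aged). By pairs, E4 was above E3 for 22 of 24 in 5xFAD (median 0.53), 5 of 23 in aged (-0.75) and 20 of 24 in young (0.39). Npas4 stood at 50.1, 118 and 19.1 CPM in E4 5xFAD, E4 aged and E4 young, against 6.01, 233 and 18.8 CPM in E3 5xFAD, E3 aged and E3 young. Its log2 fold change of 0.84 ± 0.17 (edgeR adjusted p = 0.000708) was -0.35 without E4 5xFAD or E3 5xFAD, 1.198 without E4 young and 1.199 without E3 young, and was not called in these fits. The same 4 sections each ended the calls of Fos, Junb and Egr4 (-0.18 to 0.43, 0.22 to 0.39 and 0.41 to 0.47). The 4 hemoglobin genes, a sign of blood left in the tissue, were also called higher in E4 with a median of 1.38 (all 4 and 1.57 without E4 aged). They summed to 6.44, 135 and 200 CPM in E4 5xFAD, E4 aged and E4 young, against 25.4, 136 and 41.0 CPM in E3 5xFAD, E3 aged and E3 young, so that their direction in the 5xFAD pair opposed that in the young pair.

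The upper layer markers themselves did not pass the threshold between E4 and E3. One pooled limit on upper layer genes chose the spots in every section, which can hold related markers near a common level. In every comparison of genotype or condition, a missing call in the layer 2/3 or layer 4 list is therefore no evidence of an unchanged level. None of 12 layer 2/3 genes, 7 layer 4 genes, 26 synapse and receptor genes and 22 cholesterol synthesis genes was called by edgeR, with medians of -0.15, -0.27, -0.13 and 0.07, while 605 of all 12259 genes had an unadjusted p under 0.05. Without E4 aged the layer 4 gene Plxnd1 passed as lower (-0.42, adjusted p = 0.0472) and the other 3 lists again had no call. Of the 13 mitochondrially encoded genes 1 was called lower, and 4 without E4 aged. It was mt-Atp8, a subunit of the ATP synthase, at 127.7, 406 and 322 CPM in E4 5xFAD, E4 aged and E4 young, against 299, 335 and 419.5 CPM in E3 5xFAD, E3 aged and E3 young. For mt-Atp8 the log2 fold change was -0.69 ± 0.13 (edgeR adjusted p = 5.92e-05), and -0.22 without either 5xFAD section and -0.80 without either young section, where it was not called.

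The aged sections were compared with the young sections. At an adjusted p of 0.05, 26 genes were higher and 3 lower in aged, which is 29 of 12259 genes (0.237% in either direction, 0.212% higher and 0.0245% lower). Without E4 aged, 36 were higher and 14 lower of 12717 (0.393%, with 0.283% higher and 0.11% lower). DESeq2 called 0 genes, with 58 at an unadjusted p under 0.05, and 7 without E4 aged. Because E4 aged gave 59195 UMIs, the contrast rests on E3 aged, and the calls reported here other than Pcp4 were lost without it.

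Immediate early genes led the list, with 12 of 24 called higher, 23 of 24 positive and a median of 0.82, against -0.015 over all genes (15 called and 0.95 without E4 aged). Npas4, an activity-dependent transcription factor, had 7 UMIs (118 CPM) in E4 aged and 686 UMIs (233 CPM) in E3 aged, against 72 UMIs (19.1 CPM) in E4 young and 64 UMIs (18.8 CPM) in E3 young. For Npas4 the log2 fold change was 3.97 ± 0.18 (SE), with an edgeR adjusted p of 3.57e-108, and 1.80 (adjusted p = 0.31) without E3 aged. Fosb stood at 16.9 CPM (1 UMI) in E4 aged and 67.5 CPM in E3 aged, against 10.9 CPM in E4 young and 7.62 CPM in E3 young, with 2.82 ± 0.29 (adjusted p = 5.58e-19) and 0.47 without E3 aged. Fos stood at 33.8 CPM (2 UMIs) in E4 aged and 250.5 CPM in E3 aged, against 66.8 and 46.9 CPM in E4 young and E3 young, with 2.35 ± 0.15 (adjusted p = 5.5e-50) and -1.43 without E3 aged. The difference of Fos was thus present in the E3 pair only, at a log2 ratio of 2.42 (2.17 to 2.67), while the E4 pair gave -0.98 (-4.04 to 0.89).

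Among the other members the E3 pair carried most of the difference, while the E4 pair differed in direction from gene to gene on few UMIs. Junb, an AP-1 subunit, stood at 169 and 241 CPM in E4 aged and E3 aged, against 130.5 and 84.7 CPM in E4 young and E3 young (1.41 ± 0.14, edgeR adjusted p = 5.58e-19). Dusp1, a phosphatase that switches off MAP kinases, stood at 101 and 211.5 CPM against 97.0 and 79.98 CPM in the same order (1.35 ± 0.15, adjusted p = 7.71e-17). Arc, a regulator of synaptic receptors that was named after its values were seen, stood at 169 and 358 CPM against 211 and 160 CPM (0.98 ± 0.15, adjusted p = 1.47e-08). Egr4, Btg2, Nr4a1, Dusp6, Ier5 and Egr1 completed the 12. Without E3 aged, the log2 fold changes were 0.04 for Junb, -0.29 for Dusp1 and -0.62 for Arc. Their calls were also lost without any one of E4 5xFAD, E3 5xFAD, E4 young and E3 young, at 1.02 to 1.27 for Junb, 1.01 to 1.16 for Dusp1 and 0.45 to 0.90 for Arc. In the E4 pair the log2 ratio was 0.37 (-0.70 to 1.27) for Junb, 0.06 (-1.39 to 1.199) for Dusp1 and -0.32 (-1.39 to 0.57) for Arc, each with an interval that held 0. By pairs, 23 of 24 immediate early genes were higher in E3 aged than in E3 young (median 0.92), and 13 of 23 were higher in E4 aged than in E4 young (median 0.06). Over all genes, 6132 of 11922 were higher in the E3 pair (median 0.008) and 5699 of 10993 in the E4 pair (median 0.051).

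**Figure D4:**
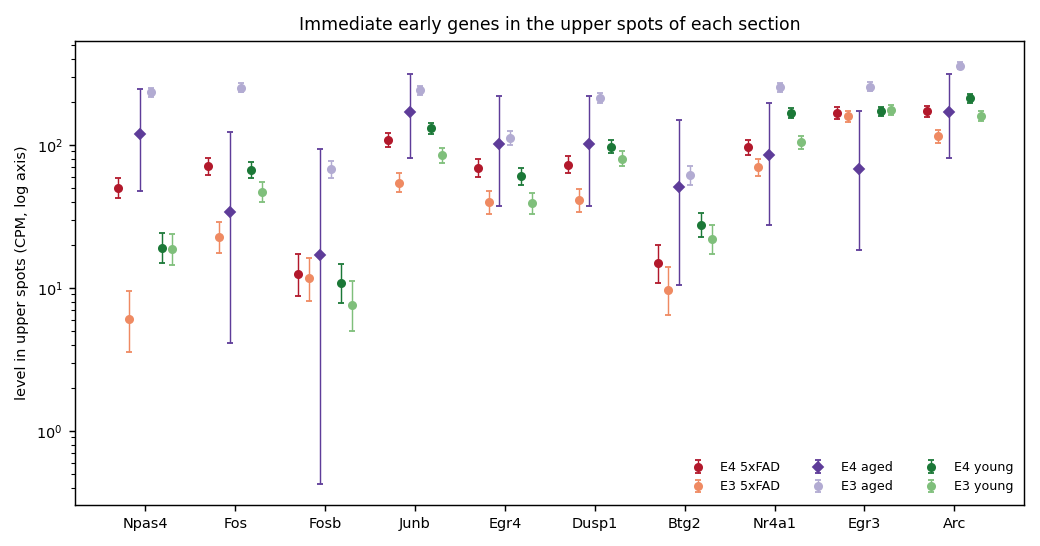
Levels (CPM, log axis) of 10 immediate early genes in the upper spots, with 1 point for each section and bars for the exact 95% Poisson interval (counting error only). E3 aged (light purple) lay highest for all 10 genes, and the intervals of E4 aged (dark diamonds) span most of the other sections.

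Promoters of these genes are shown because members moved together in 1 library and the cAMP response element, TGACGTCA, is a well-known element of activity-dependent promoters. Promoter windows of 300 bases, from 250 before to 50 after the start of the gene, were taken from RefSeq for the build GRCm38.p6 and searched for these letters, which read the same on both strands. Of the 24 immediate early genes 18 had a window, and 2 of these 18 (11.1%) held the letters, against 507 of all 27025 windows (1.88%). Both were among the 10 matched genes called higher in aged. They were Btg2 on the minus strand (chr1:134079106-134079405), with the element starting at -166 from the gene start, and Dusp1 on the minus strand (chr17:26508423-26508722), with the element at -143. The capitals mark the element. The CArG box of serum response factor was in 0 of the 18 windows and in 425 of all windows (1.57%). A box more than 250 bases before the start would not be seen, and 18 windows are few for such a share. Nothing is read from its absence. A match is a description of the letters and no evidence of binding.
Btg2: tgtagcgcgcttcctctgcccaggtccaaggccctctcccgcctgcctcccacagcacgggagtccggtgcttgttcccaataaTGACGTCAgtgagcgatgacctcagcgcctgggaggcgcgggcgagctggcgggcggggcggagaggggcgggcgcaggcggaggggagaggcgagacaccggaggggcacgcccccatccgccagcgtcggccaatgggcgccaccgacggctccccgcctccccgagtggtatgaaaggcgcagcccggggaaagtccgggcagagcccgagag
Dusp1: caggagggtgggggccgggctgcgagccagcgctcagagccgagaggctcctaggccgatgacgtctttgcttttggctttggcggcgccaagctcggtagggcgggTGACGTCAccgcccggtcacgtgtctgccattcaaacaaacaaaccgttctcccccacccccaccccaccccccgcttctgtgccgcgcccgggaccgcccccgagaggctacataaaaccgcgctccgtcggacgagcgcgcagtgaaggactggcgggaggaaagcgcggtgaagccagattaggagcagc

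Btg2, an antiproliferative early response gene, stood at 50.7 CPM in E4 aged and 61.1 CPM in E3 aged, against 27.6 CPM in E4 young and 22.0 CPM in E3 young. The aged and young sections did not overlap, though the level in E4 aged rests on few UMIs. The log2 fold change of Btg2 was 1.43 ± 0.25 (edgeR adjusted p = 3.71e-06), or 0.57 without E3 aged and 1.41 without E3 young, where it was not called. A pair of genes off the list had the same pattern, again on few UMIs in E4 aged. Gadd45g, a growth arrest and DNA damage gene, stood at 67.6 and 55.0 CPM in E4 aged and E3 aged, against 15.4 and 15.2 CPM in E4 young and E3 young, with 2.02 ± 0.26 (adjusted p = 1.48e-11) and 1.68 (adjusted p = 0.602) without E3 aged. Arl4d, a small GTPase, stood at 135 and 68.9 CPM against 35 and 24.6 CPM, with 1.49 ± 0.20 and 1.68 (adjusted p = 0.313) without E3 aged or 1.53 without E3 young, where it was not called.

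Chemokines of activated microglia were also higher in aged. Ccl4 had 29 UMIs in the aged pair against 1 UMI in the young pair, a ratio of 69.3 (exact interval 11.5 to 2830), and Ccl3 had 21 against 3 UMIs, a ratio of 16.7 (5 to 87.6). All 29 UMIs of Ccl4 came from E3 aged. With Lyz2, a lysozyme of myeloid cells, these were the only 3 of 29 disease-associated microglia genes that edgeR called (list median 0.17), and without E4 aged Cst7 joined them (4 of 32). Besides E3 aged, leaving out either 5xFAD section ended the calls of all 3 (3.88 for Ccl3, 4.78 for Ccl4 and 1.34 for Lyz2), and leaving out E4 young or E3 young those of Ccl3 (3.44 and 5.14) and Lyz2 (1.34 and 1.63). No layer 2/3, interneuron, synapse, cholesterol synthesis, homeostatic astrocyte, homeostatic microglia or mitochondrially encoded gene was called in the 6-section fit, with list medians of -0.13, -0.06, -0.15, 0.15, -0.22, -0.04 and -0.24 and 565 of all genes at an unadjusted p under 0.05. Without E4 aged, Calb1 (-0.50, adjusted p = 0.0132) and the peptide gene Sst (-0.49, adjusted p = 0.0132) passed as lower in E3 aged, as did mt-Atp8 and mt-Nd2, while the other 4 lists again had no call. In that fit E3 aged is the only aged section and is fitted exactly, so these p-values rest on 1 residual degree of freedom among the 5xFAD and young sections and hold no spread of the aged condition. Calb1 stood at 221 CPM in E3 aged, against 267 and 305 CPM in the young sections, and Sst at 370.0 CPM, against 441.5 and 511 CPM.

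Pcp4 was an exception that turned on E4 aged. It stood at 1961 and 452 CPM in E4 aged and E3 aged, against 354 and 398 CPM in E4 young and E3 young. Its log2 fold change was 0.96 ± 0.17 (edgeR adjusted p = 7.09e-06), and 0.21 without E4 aged, where it was not called. The 9 spots of E4 aged held thalamus, striatum and myelin markers, and Pcp4 itself made up most of their layer 5 marker sum. Pcp4 was not called without E4 5xFAD (1.12) or E4 young (0.67) either. Hemoglobin genes summed to 135 and 136 CPM in E4 aged and E3 aged, against 200 and 41.0 CPM in E4 young and E3 young, so they moved with the E3 contrast and not with the E4 contrast. Mitochondrially encoded RNA summed to 139200 and 129800 CPM in the aged sections, against 148800 and 137000 CPM in the young sections. The part of residual blood or of mitochondrial share in the aged result was not tested.

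The 5xFAD sections differed most from the young sections, with which they share the controls of the aged comparison. At an adjusted p of 0.05, 115 genes were higher and 85 lower in 5xFAD, which is 200 of 12259 genes (1.63% in either direction, 0.938% higher and 0.693% lower). Without E4 aged, 215 were higher and 252 lower of 12717 (3.67%, with 1.69% higher and 1.98% lower). DESeq2 called 18 genes, all among the 200 and 16 of them higher, with 124 at an unadjusted p under 0.05. The median log2 fold change over all genes was 0.004.

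Human APP, a transgene, marked the 5xFAD sections. It had 70.5 and 49.8 CPM in E4 5xFAD and E3 5xFAD and no UMI in the young sections, which is at least 144-fold higher against a floor of 3 UMIs over both young sections. Thy1, the gene whose promoter cassette drives human APP, stood at 4846 and 3637 CPM in E4 5xFAD and E3 5xFAD, against 779 and 803 CPM in E4 young and E3 young, with a log2 fold change of 2.32 ± 0.18 (edgeR adjusted p = 1.15e-33). Both were higher in E4 5xFAD than in E3 5xFAD. The upper spots held less human APP than the deeper ones, at 122 and 112 CPM in layer 5 spots and 135 and 68.2 CPM in layer 6 spots of E4 5xFAD and E3 5xFAD.

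Disease-associated microglia genes rose in the upper spots of 5xFAD, with 18 of 29 called higher, 27 of 29 positive and a median of 1.08 (23 of 32 and 1.13 without E4 aged). Cst7 had 239 UMIs in the 5xFAD pair and 1 UMI in the young pair, a ratio of 289 (exact interval 51.3 to 11500). Itgax, the integrin chain CD11c, had 45 UMIs in the 5xFAD pair and 0 in the young pair, at least 18.1-fold higher, and was not called without E4 young (6.42 in the fit). Tyrobp, the signalling adaptor of Trem2, stood at 212 CPM in E4 5xFAD and 148 CPM in E3 5xFAD, against 23.9 CPM in E4 young and 41.9 CPM in E3 young, with a log2 fold change of 2.36 ± 0.13 (edgeR adjusted p = 3.75e-65). Trem2, a lipid receptor of microglia that was named after its values were seen, stood at 121 and 70.8 CPM against 16.4 and 21.7 CPM in the same order, with 2.22 ± 0.15 (adjusted p = 1.77e-43). Lyz2 stood at 58.3 and 41.8 CPM against 6.63 and 6.15 CPM, with 2.86 ± 0.25 (adjusted p = 4.14e-28), and Cd52, a small surface protein of immune cells, at 29.1 and 22.0 CPM against 5.57 and 3.52 CPM, with 2.38 ± 0.29 (adjusted p = 1.8e-13). The 5xFAD and young sections did not overlap for any of these genes.

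The chemokine genes Ccl3 and Ccl4 were sparse but concentrated in 5xFAD. Ccl4 had 48 UMIs in the 5xFAD pair against 1 UMI in the young pair (ratio 58, exact interval 9.93 to 2340), and Ccl3 had 60 against 3 UMIs (ratio 24.2, 7.88 to 120). Ccl6 stood at 22.7 and 9.69 CPM in E4 5xFAD and E3 5xFAD, against 1.59 and 1.76 CPM in E4 young and E3 young. The calls of Ccl3, Ccl4 and Ccl6 were lost without E4 5xFAD (log2 fold changes of 3.95, 3.43 and 2.31) and without E4 young (3.52, 3.69 and 2.39). Homeostatic microglia genes were positive for 13 of 13 (median 0.46), and 2 were called (4 without E4 aged), among them Csf1r, the receptor for the microglial growth factor, at 76.2 and 76.5 CPM in E4 5xFAD and E3 5xFAD, against 46.1 and 55.4 CPM in E4 young and E3 young (0.495 ± 0.13, edgeR adjusted p = 0.0199). Csf1r was not called without any one of E4 5xFAD, E3 5xFAD, E4 young and E3 young (0.34 to 0.65).

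Complement genes were positive for 9 of 9, with 5 called higher and a median of 1.27 (5 of 10 and 1.23 without E4 aged). C4b, which astrocytes and oligodendrocytes make, stood at 79.9 and 38.4 CPM in E4 5xFAD and E3 5xFAD, against 5.30 and 5.27 CPM in E4 young and E3 young. For C4b the log2 fold change was 3.36 ± 0.25 (edgeR adjusted p = 4.8e-38). The C1q chains of microglia rose by less: C1qa stood at 198 and 150 CPM against 58.3 and 65.0 CPM (1.39 ± 0.12, adjusted p = 9.28e-27), and C1qb at 222 and 178 CPM against 68.1 and 83.5 CPM (1.3 ± 0.12, adjusted p = 1.08e-23). The calls of C1qa and C1qb were lost without E4 5xFAD (1.15 and 1.08) and without E4 young (1.16 and 1.02).

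Gfap led the reactive astrocyte list, of which 3 of 11 genes were called (3 of 14 without E4 aged). It stood at 189 and 99.6 CPM in E4 5xFAD and E3 5xFAD, against 32.1 and 21.7 CPM in E4 young and E3 young, with a log2 fold change of 2.31 ± 0.14 (edgeR adjusted p = 3.09e-58). Cst7, C4b, Tyrobp, Trem2, Gfap, Lyz2 and Cd52 were called under all 19 other settings tried, DESeq2 and every single section left out among them. Serpina3n, by contrast, stood at 96.5 CPM in E4 5xFAD and 97.3 CPM in E4 young, a log2 ratio of -0.01 (-0.24 to 0.22), and at 27.4 CPM in E3 5xFAD and 8.20 CPM in E3 young, a ratio of 1.74 (1.11 to 2.41). The 2 intervals do not overlap, and the difference between genotypes was not tested.

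Antigen presentation and interferon genes rose as groups of 4. Of 10 MHC class I genes 4 were called higher with a median of 0.64 (also 4 without E4 aged), among them B2m, the light chain of MHC class I, at 329 and 340 CPM in E4 5xFAD and E3 5xFAD against 216 and 226.5 CPM in E4 young and E3 young (0.50 ± 0.13, edgeR adjusted p = 0.0107). H2-D1 stood at 88.4 and 81.2 CPM against 44.8 and 47.5 CPM (0.78 ± 0.13, adjusted p = 1.25e-06). Of 10 interferon response genes 4 were called higher and all 10 were positive, with a median of 0.64 (4 of 14 and 0.68 without E4 aged), among them Lgals3bp, a secreted galectin ligand, at 42.0 and 38.8 CPM against 8.75 and 12.9 CPM (1.81 ± 0.23, adjusted p = 3.46e-12). The calls of B2m and H2-D1 were each lost without any single one of E4 5xFAD, E3 5xFAD, E4 young and E3 young (0.46 to 0.53 for B2m, 0.65 to 0.90 for H2-D1), and that of Lgals3bp without E4 young (1.51).

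Cholesterol synthesis genes were positive for 22 of 22, with 7 called higher and a median of 0.36 (also 7, and 0.35, without E4 aged). Sqle, which makes squalene epoxide, stood at 83.0 and 64.5 CPM in E4 5xFAD and E3 5xFAD, against 46.9 and 46.3 CPM in E4 young and E3 young (0.56 ± 0.14, edgeR adjusted p = 0.00522). Fdft1, squalene synthase, stood at 146 and 127 CPM against 87.5 and 90.5 CPM (0.52 ± 0.12, adjusted p = 0.00272). Fdps, Insig1, Hmgcs1 and Msmo1 were also called. By pairs, 22 of 22 were higher in E4 5xFAD than in E4 young (median 0.60), and 21 of 22 in E3 5xFAD than in E3 young (median 0.29). The calls of Sqle and Fdft1 were lost on leaving out any single one of E4 5xFAD, E3 5xFAD, E4 young and E3 young, with fold changes between 0.35 and 0.74 for Sqle and between 0.37 and 0.65 for Fdft1. The iron carrier gene Trf and the cholesterol transfer gene Npc2 were also higher, at 0.66 ± 0.12 (adjusted p = 1e-05) and 0.57 ± 0.13 (adjusted p = 0.00192). The calls of Trf and Npc2 were likewise lost without any single one of those 4 sections, with fold changes of 0.40 to 0.90 for Trf and 0.35 to 0.77 for Npc2.

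Of 12 layer 2/3 genes, 2 were called lower in 5xFAD and 1 was positive, with a median of -0.27. Nectin3 stood at 21.7 and 19.1 CPM in E4 5xFAD and E3 5xFAD, against 29.7 and 41.3 CPM in E4 young and E3 young (-0.89 ± 0.21, edgeR adjusted p = 0.00272). Calb1 stood at 207 and 250 CPM against 267 and 305 CPM (-0.43 ± 0.13, adjusted p = 0.0446). Calb1 was not called under 13 of the 19 other settings, and neither Nectin3 nor Calb1 was called without E4 5xFAD (-1.20 and -0.41), E3 5xFAD (-0.58 and -0.46), E4 young (-1.15 and -0.34) or E3 young (-0.62 and -0.52). None of 7 layer 4 genes was called, with a median of -0.02. Without E4 aged, Nectin3, Calb1, Cux1, Rasgrf2 and Lmo4 passed as lower and the enkephalin gene Penk as higher. C1ql3, a synapse-organizing protein of cortical projection neurons, was among the 12 largest falls at 11.5 and 17.7 CPM in E4 5xFAD and E3 5xFAD against 28.9 and 39.0 CPM in E4 young and E3 young (-1.31 ± 0.22, adjusted p = 1.11e-06), and was not called without E4 5xFAD (-1.21), E3 5xFAD (-1.46), E4 young (-1.23) or E3 young (-1.43).

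Of 19 interneuron genes, Sst, Npy and Cort were called lower and Tac1 higher, with a median of -0.08 (4 lower and 1 higher without E4 aged). By pairs 12 of 19 were higher in E4 5xFAD than in E4 young (median 0.11), and 8 of 19 in E3 5xFAD than in E3 young (-0.05). Sst, the somatostatin gene, stood at 297 and 346 CPM in E4 5xFAD and E3 5xFAD, against 441.5 and 511 CPM in E4 young and E3 young (-0.67 ± 0.14, edgeR adjusted p = 0.000361). Npy stood at 280.5 and 274 CPM against 346.5 and 382 CPM (-0.49 ± 0.13, adjusted p = 0.0211), and Cort, a somatostatin-like peptide, had -1.04 ± 0.19. Tac1, a tachykinin gene, rose by 0.83 ± 0.20, but striatum markers rose beside it: 3 of 7 were called higher with a median of 0.57 (also 3 without E4 aged), and the list summed to 278 and 336 CPM in the 5xFAD sections against 197 and 251 CPM in the young sections. The calls of Sst and Npy were lost without any single one of E4 5xFAD, E3 5xFAD, E4 young and E3 young, with log2 fold changes between -0.74 and -0.59 for Sst and between -0.81 and -0.22 for Npy, and that of Cort without E4 5xFAD (-0.79), E3 5xFAD (-1.18) or E4 young (-0.60). Tac1 was not called without any one of the 4 either (0.38 to 1.27). Of 26 synapse and receptor genes, Grin2b, an NMDA receptor subunit, was called lower (-0.43 ± 0.12, and -0.49 to -0.38 without any one of the 4 sections, where it was not called), and the list median was -0.13. Without E4 aged 4 of 27 were called lower and 1 higher.

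Immediate early genes were called lower in 5xFAD for 7 of 24, with a median of -0.31 (10 lower and 1 higher without E4 aged). Nr4a1, a nuclear receptor induced by activity, stood at 95.9 and 69.5 CPM in E4 5xFAD and E3 5xFAD, against 167 and 104 CPM in E4 young and E3 young (-0.81 ± 0.13, edgeR adjusted p = 6.67e-08), and was not called without E4 5xFAD (-1.001), E3 5xFAD (-0.66), E4 young (-0.34) or E3 young (-1.19). Jun stood at 40.0 and 31.7 CPM against 58.1 and 62.1 CPM (-0.84 ± 0.15), and Btg2, whose promoter is printed above, at 14.9 and 9.69 CPM against 27.6 and 22.0 CPM (-1.11 ± 0.24, adjusted p = 0.000739). Neither was called without any one of E4 5xFAD, E3 5xFAD, E4 young and E3 young, at -1.14 to -0.57 for Jun and -1.31 to -0.97 for Btg2. Npas4 was not among them, and the pairs opposed each other: its log2 ratio was 1.39 (0.98 to 1.82) for E4 5xFAD over E4 young and -1.64 (-2.48 to -0.87) for E3 5xFAD over E3 young. Whether that difference between genotypes exceeds the spread between mice was not tested.

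**Figure D5:**
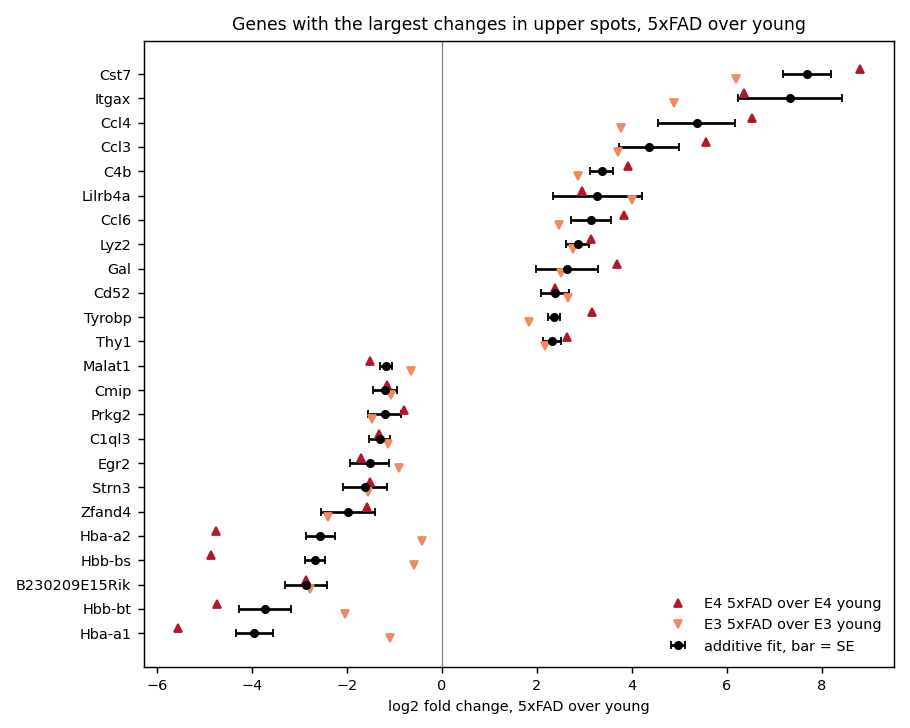
The 12 genes highest and the 12 lowest in 5xFAD against young, as log2 fold change of the 6-section fit (black, bar is SE) and as log2 ratio within the E4 pair (red) and the E3 pair (orange), with 0.5 UMI in place of 0 in the ratios. The hemoglobin genes fell by far more in the E4 pair than in the E3 pair, while B230209E15Rik, Strn3, Cmip and C1ql3 fell by similar amounts in both.

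RNAs that carry signs of tissue handling moved with 5xFAD too. The 4 hemoglobin genes were called lower, also without E4 aged, with a median of -3.19 and summed to 6.44 and 25.4 CPM in E4 5xFAD and E3 5xFAD, against 200 and 41.0 CPM in E4 young and E3 young. The fall of Hbb-bs (-2.66 ± 0.21, edgeR adjusted p = 1.15e-33) was -0.91 without E4 5xFAD and -0.84 without E4 young, where it was not called. Mitochondrially encoded genes were called lower for 5 of 13 (median -0.61, 12 of 13 without E4 aged) and summed to 90460 and 109000 CPM against 148800 and 137000 CPM. The nuclear RNA Malat1 stood at 125 and 187.5 CPM against 357 and 296.5 CPM (-1.18 ± 0.13, adjusted p = 3.06e-16), and was not called without E4 5xFAD (-0.83) or E4 young (-0.80). Of the 7 RNA quality genes, Malat1 and Gm42418, a gene model that takes up ribosomal RNA reads, were called lower, with or without E4 aged. Gm42418 stood at 274 and 361 CPM against 454.5 and 737 CPM (-0.99 ± 0.15, adjusted p = 8.08e-09), and was not called without E4 5xFAD (-0.89), E3 5xFAD (-1.11) or E3 young (-0.67). By pairs 5 of the 7 were higher in 5xFAD, over a range of -1.52 to 0.90 in the E4 pair and -1.03 to 0.43 in the E3 pair, and the 7 summed to 3001 and 2908 CPM in the 5xFAD sections against 2940 and 2923 CPM in the young sections. The part of these RNAs in the other 5xFAD results was not tested.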

How the data were processed

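As deposited, the files held unnormalized counts of UMIs for each gene in each spot. The methods name Space Ranger 1.3.0 with the aligner STAR 2.5.1b, and the matrix headers name Space Ranger 2.0.0 for E3 5xFAD and 1.2.2 for the other 5 sections. The gene list joins mm10 and GRCh38. Mouse genes and 3 human genes were kept, 32288 in all. Spots marked as tissue by the deposited mask, present in the matrix and with at least 1000 UMIs were scored and sorted into upper, layer 5 and layer 6 spots, and a spot in both deep sets went to the one in which it ranked higher. UMIs were summed per section and set. Counts were fitted in edgeR 4.0.16 (limma 3.58.1, R 4.3.3) with TMM scaling, filterByExpr and the quasi-likelihood test with Benjamini-Hochberg adjustment at 0.05. The model was genotype plus condition within the upper spots, and section plus spot set between layers. With 1 section per group, the fit had 2 residual degrees of freedom and no interaction, and without E4 aged it had 1 and E3 aged was fitted exactly. The other contrasts then rested on the remaining 4 sections. Single pairs of sections were given as log2 ratios with exact conditional binomial 95% intervals for genes with at least 20 UMIs, with 0.5 UMI in place of 0. Lists were described by counts of called genes and by their median.

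The text names the 12 largest changes each way among genes past the threshold whose section pairs share the direction of the fit, the 10 largest each way between layers at 50 CPM or more, and up to 4 examples of a list; a count of 5 or fewer is also named in full, except for some genes that are not reported here. Members, lists and tests were chosen with earlier results of these data known. Alternatives were the 90th and 96th percentile, a percentile within each section, at least 5000 UMIs, scoring after thinning to 5000 UMIs, all barcodes without the mask, members with at least 2 neighbouring members, RLE scaling, no filter, DESeq2 1.42.0, and each section left out. The fit code was tested on simulated counts. Promoter sequences came from RefSeq (GRCm38.p6).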

Additional observations from a re-analysis of the deposited data

Results flagged for a closer look

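For 6 named genes the E4 over E3 log2 ratio in the upper spots ran one way in the 5xFAD pair and the opposite way in the young pair, each with a counting interval clear of 0 and a size of at least 0.1, limits that were set after the ratios were seen. None of these differences between conditions was tested, since each group held 1 section. Tyrobp had 0.518 in 5xFAD and -0.812 in young, and C1qb 0.317 and -0.293, so both microglial genes were higher in E4 in the 5xFAD pair and lower in E4 in the young pair. The hemoglobin genes ran the other way, with -2.237 in 5xFAD and 2.022 in young for Hbb-bs and -2.182 and 2.153 for Hba-a2. Malat1 had -0.589 and 0.270, and mt-Co2, a subunit of cytochrome oxidase, -0.224 and 0.108.

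Outside the tissue mask, 112 of 1275 barcodes with at least 1000 UMIs (8.78%) reached the score of an upper spot. They numbered 40 in E4 5xFAD, 0 in E3 5xFAD, 1 in E4 aged, 20 in E3 aged, 43 in E4 young and 8 in E3 young. These barcodes were not counted as upper spots.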

How the results depend on the processing

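The number of genes called depended on the spot rule and the test far more than on scaling. With at least 2 neighbouring members, E4 aged kept 0 upper spots. Counts under that rule therefore come from 5 sections with 1 residual degree of freedom, as when E4 aged is left out. For E4 against E3, edgeR called 45 genes, and 10 at the 90th percentile, 14 at the 96th, 1 with a percentile within each section, 6 after thinning, 98 with members that had at least 2 neighbouring members, and DESeq2 called 2. For aged against young, edgeR called 29, and 15 at the 90th percentile, 5 with a percentile within each section, 12 after thinning, 65 with neighbouring members, and DESeq2 0. For 5xFAD against young, edgeR called 200, and 113 at the 90th percentile, 71 at the 96th, 19 with a percentile within each section, 56 after thinning, 326 with neighbouring members, and DESeq2 18. Single sections left out moved the counts between 7 (without either 5xFAD section) and 128 (without E3 aged) for E4 against E3, between 10 (without E3 young) and 57 (without E3 aged) for aged against young, and between 17 (without E4 young) and 499 (without E3 aged) for 5xFAD against young. Alternatives added after seeing the data left out E4 aged together with another choice: the 3 contrasts then gave 126, 61 and 448 calls with the mask ignored, 119, 70 and 396 after thinning, and 2, 7 and 22 by DESeq2. Between upper and layer 5 spots DESeq2 called 1897 genes. At the 96th percentile there were 534 upper spots.

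Directions of named genes turned in few cases. For E4 against E3, Gal had 0.285 with a percentile within each section, Fos -0.040 by DESeq2 and Hbb-bs -0.072 by DESeq2 without E4 aged. With single sections left out the log2 fold changes ran between -1.108 and 2.72 for Hba-a1, -1.011 and 1.861 for Hbb-bt, -1.564 and 1.643 for Hbb-bs, and -1.779 and 1.74 for Hba-a2, negative without a young section, and between -3.008 and 1.408 for Cst7, -0.354 and 1.338 for Npas4, and -0.178 and 0.965 for Fos, negative without a 5xFAD section. For aged against young, Hba-a1 had -0.043 with a percentile within each section, -0.477 after thinning and -0.006 after thinning without E4 aged, and Pcp4 -0.000 after thinning without E4 aged. With single sections left out the range was -1.975 to 2.396 for Hba-a1, -0.295 to 1.498 for Dusp1, -2.528 to 8.863 for Ccl4, -1.432 to 2.664 for Fos and -0.617 to 1.187 for Arc, negative without E3 aged and, for Hba-a1, also without E3 young. For 5xFAD against young, Tac1 had -0.059 with neighbouring members. Over all named genes and alternatives, the direction and the call were kept in 313 results, the call was lost in 277 and the direction turned in 17 for E4 against E3, against 198, 114 and 10 for aged against young and 793, 505 and 1 for 5xFAD against young. The cause was not tested. Depth limits E4 aged, whose 59195 UMIs give 1 UMI a level of 16.9 CPM. No paired analysis was possible because each group held 1 section and the labels give no replicate numbers.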
